A study of Mus musculus with 2 samples.

Results

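The cytosolic ribosomal protein genes were described in 2 libraries of induced myogenic progenitor cells (iMPCs). Members were the features whose symbol begins with Rps, Rpl or Rplp followed by a number, without the Rps6k kinase genes and without pseudogene rows marked -ps. Of 25828 features, 103 matched the pattern, 9 were kinases and 8 were pseudogene rows, which left 86 members. These comprised 30 genes of the small (40S) subunit, 43 of the large (60S) subunit and 3 of the ribosomal stalk, together the 76 core members. The others were 7 paralogues (Rpl3l, Rpl10l, Rpl22l1, Rpl36al, Rpl39l, Rps27l and Rpl7l1), 2 retrogenes (Rps27rt and Rps23rg1) and Rps19bp1, which encodes a protein that binds Rps19 and is no ribosome component. Rpsa and Fau also encode ribosomal proteins, but their symbols fall outside the pattern, so they are given apart.

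Both libraries were made from mouse cells of the genotype Tg:Pax7-nGFP/C57BL6;DBA2, embryonic fibroblasts that had been turned into iMPCs by 4 transfections of synthetic MyoD mRNA with B18R in the medium. One clone, F/R/C, came from culture with Forskolin, RepSox and CHIR, and the other, F/R/C+CP, from culture with these and CP, a JAK inhibitor. The clones are called without CP and with CP from here on. A group was a single clone sequenced as a single library, after straining had taken out fibres and myotubes. An effect of CP cannot be told apart from one of clone or library, and no difference was tested. Intervals in brackets are exact 95% intervals and cover counting error only.

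Every ribosome carries 1 copy of nearly every ribosomal protein, and the cell makes these proteins in matched amounts. Their mRNAs are among the most abundant of a growing cell and are controlled together, in large part through a run of pyrimidines at the 5′ end, the TOP motif, which ties their translation to growth signals through mTOR. Muscle differentiation ends the cell cycle and turns synthesis toward contractile proteins, and striated muscle is known for a paralogue of its own, Rpl3l, which can replace Rpl3 in the ribosome.

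The annotated 5′ ends of 5 members are shown because the tract is the feature the family is best known for. They were taken from the core members whose annotated transcript begins with such a tract, and these 5 recur in the results. Rps2 and Rps10 are the highest and lowest core members without CP, and Rps2 and Rps21 lie on opposite sides of the comparison of clones. Rpl37a and Rpl32 are among the members that differed with Acta1 or Myog. Other members that recur, such as Rpl9, Rps20, Rpl12 and Rps29, have no such tract at the annotated start. The sequences are the first 20 bases of the lowest-numbered protein-coding transcript in GENCODE M21, written 5′ to 3′, with capitals for a run of C followed by at least 4 C or T from the first base.
Rps2: CTTCTTCTTCTTCgggagaa
Rpl32: CTTCCTTCTTCCTCggcgct
Rpl37a: CTCTTCggacttgggcttgg
Rps21: CCCTCCTgcccaatagtgct
Rps10: CTTTCCagcctccgcctcgg
On GRCm38 these lie at chr17:24720110-24720129 (Rps2, plus strand), chr6:115808728-115808747 (Rpl32, minus strand), chr1:72711290-72711309 (Rpl37a, plus strand), chr2:180257377-180257396 (Rps21, plus strand) and chr17:27635221-27635240 (Rps10, minus strand), all in the 5′ exon of the gene. The counts themselves were made on GRCm39. Such a tract began the annotated transcript in 11 of 76 core members (14.5%) and in 2.18% of 21901 genes with a protein-coding transcript. Annotated starts are often some bases away from the used start, so the absence of these letters draws nothing about the other members, and the 3′ reads counted here do not read this end.

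The libraries differed widely in depth. After the filter the study states, 3962 of 5541 F/R/C barcodes and 10834 of 12000 F/R/C+CP barcodes were kept, with medians of 7112 and 21844.5 unique molecular identifiers (UMIs, counted mRNA molecules). The lowest count of a deposited barcode was 500 without CP and 12097 with CP, and 18 barcode sequences occurred in both libraries. Pax7-positive, cycling, Myog-high and Acta1-high barcodes were set apart by counts of those genes alone, as described under the processing, and the remaining barcodes met no limit. Acta1-high barcodes held the muscle creatine kinase gene Ckm at 179 and 199 CPM (counts per 1000000 counts) without and with CP, against 2.46 and 20.6 CPM in Pax7-positive barcodes. Pax7 was at 8.13 and 6.48 CPM in Acta1-high and at 311 and 147 CPM in Pax7-positive barcodes, which Pax7 itself chose. Of the immune and endothelial genes, Ptprc and Cdh5 were at or near 0 and Cd68 and Pecam1 at or under 3.79 CPM in both classes of both libraries. The connective genes Bgn, Col1a1 and Pdgfrb were at 9.22, 5.22 and 27.4 CPM in Pax7-positive barcodes without CP. With CP they were at 21.5, 2.06 and 23.3 CPM, and in Acta1-high barcodes at or under 2.15 CPM. The smooth muscle genes Myh11 and Rgs5 were at 1.23 and 12.4 CPM in Pax7-positive barcodes without CP and at 19.1 and 10.3 CPM with CP. Acta2 was at 155 and 340 CPM there and at 1003 and 660 CPM in Acta1-high barcodes. The melanocyte genes Tyrp1, Mlana and Dct had 0 counts in both classes without CP and were higher with CP, where Dct was at 12.4 CPM in Pax7-positive, 27.7 in cycling, 0.830 in Myog-high, 7.08 in Acta1-high and 71.5 in the remaining barcodes, and their part in the results was not tested.

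The module of all 86 members took 22.7% of F/R/C counts (22.6 to 22.7) and 26.7% of F/R/C+CP counts (26.7 to 26.7), a log2 ratio of 0.24. Over barcodes the median share was 22.8% without CP, with quartiles of 20.3 and 25.7%, and 28.0% with CP, with quartiles of 24.4 and 31.3%. The ranges over barcodes overlapped almost wholly, from 0.712 to 39.2% and from 1.88 to 39.3%. The upper end was set by the filter, whose limit of 40% is on ribosomal protein counts themselves and which alone removed 47 and 149 barcodes. The module share was also lower in deeper barcodes of each library. Without CP, the median was 25.3% in the shallowest 20% of kept barcodes and 21.1% in the deepest 20%, and with CP it was 30.6 and 24.4%. Among barcodes of 10000 to 20000 UMIs in both libraries, the log2 ratio between the libraries was 0.45.

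Within a library the module share was almost level over Pax7-positive, cycling and Myog-high barcodes. Without CP, it was 22.8% in 1376 Pax7-positive, 21.5% in 634 cycling and 22.8% in 396 Myog-high barcodes. The corresponding F/R/C+CP values were 28.2% in 4612, 27.3% in 1734 and 27.5% in 1083 barcodes. Cycling barcodes thus had the lower share in both clones, by a log2 ratio of -0.09 without CP and -0.05 with CP. The DNA topoisomerase gene Top2a, one of the proliferation genes that chose them, was at 864 and 1060 CPM there against 236 and 278 CPM in Pax7-positive barcodes. All 76 core members had a lower CPM in cycling than in Pax7-positive F/R/C barcodes, and 74 of 76 did with CP. Their median log2 CPM ratios were -0.09 and -0.05, against 0.0001 for 9264 features without CP and -0.03 for 13097 with CP. The share of all features that were lower was not counted. As the members make up the module, these counts restate its lower share and are not separate results.

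In Acta1-high barcodes, the class with the most contractile gene counts, the clones parted when all kept barcodes were taken. The module took 22.6% of counts in 396 F/R/C barcodes, a log2 ratio of -0.02 over Pax7-positive ones (-0.02 to -0.01), and 21.8% in 1083 F/R/C+CP barcodes, a log2 ratio of -0.37 (-0.37 to -0.37). The library ratio, which was 1.23-fold in Pax7-positive, 1.27-fold in cycling and 1.21-fold in Myog-high barcodes, was 0.966-fold in Acta1-high barcodes. Contractile genes took 9.01% of Acta1-high counts without CP and 14.6% with CP, against 0.303 and 1.67% in Pax7-positive barcodes. With contractile and mitochondrial genes left out of the total, the log2 ratio of Acta1-high over Pax7-positive was 0.18 without CP and -0.15 with CP. Depth moved with the result too, with medians of 40901 UMIs in Acta1-high and 19485.5 in Pax7-positive F/R/C+CP barcodes, against 7876.5 and 6967.5 without CP. Between 10000 and 20000 UMIs, with classes set anew, the F/R/C+CP ratio was -0.15, with 27.0% in 444 Acta1-high and 29.9% in 2006 Pax7-positive barcodes. Without CP the ratio was -0.02 there, with 21.5% in 64 Acta1-high and 21.7% in 236 Pax7-positive barcodes. At that depth the module share of Acta1-high barcodes was thus higher with CP, as in the other classes of all kept barcodes.

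**Figure D1:**
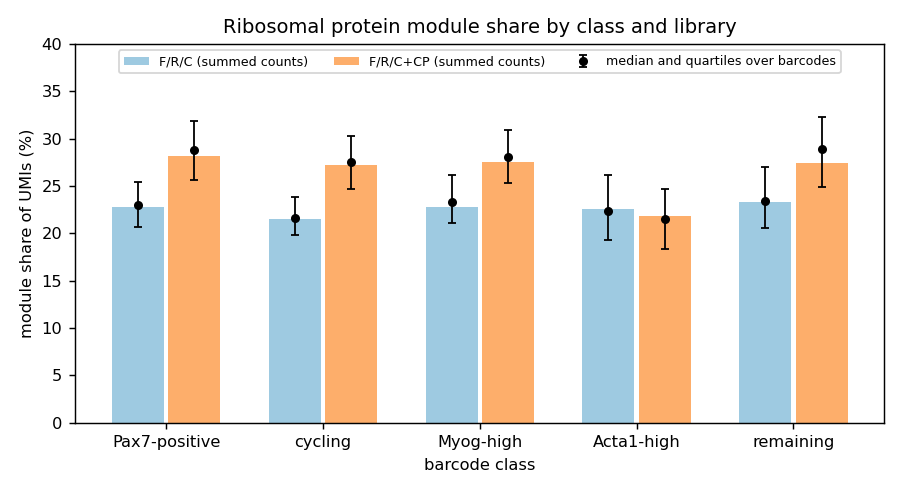
Share of all UMIs taken by the 86 members (%) in each barcode class of the library without CP (F/R/C) and with CP (F/R/C+CP). Bars are shares of summed counts, points are medians over barcodes and lines span the quartiles, and F/R/C+CP is above F/R/C in every class but Acta1-high, where the bars stand at 22.6 and 21.8%.

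A small set of kept barcodes held almost no ribosomal protein counts. The module share was under 5% in 71 barcodes without CP and in 45 with CP. These were rich in the giant muscle genes Ttn (11600 and 26505 CPM) and Neb (4918 and 5307 CPM), but not in Acta1, which was at 1208 and 2019 CPM. Ttn and Neb were picked out after their values had been seen. Barcodes with a module share of 10 to 15%, in turn, held Acta1 at 5445 CPM without CP and 11120 CPM with CP, and those of 5 to 10% at 5339 and 9853 CPM. Acta1 did not simply fall with a rising module share. Without CP it was at 1182 CPM at 20 to 25% and at 3872 CPM at 35 to 40%, against 5964 and 1867 CPM with CP. Among deposited barcodes that the filter removed, 446 F/R/C barcodes with under 250 genes had a module share of 1.29%. Barcodes over 15% mitochondrial counts had 16.2% in F/R/C (1390 barcodes) and 8.31% with CP (662 barcodes).

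Genes that make the ribosome had lower ratios than its core members. Ribosome biogenesis genes, whose products make and process rRNA, were lower in Acta1-high than in Pax7-positive barcodes for 44 of 46 genes without CP and 40 of 46 with CP, with median log2 CPM ratios of -0.95 and -0.82. Beside them, the medians were -0.01 and -0.39 for the 76 core members, and -0.69 and -0.64 for all features with at least 100 counts. Most features were thus lower in Acta1-high barcodes too, and their share was not counted. Npm1, a nucleolar chaperone, went from 2435 to 910 CPM without CP and from 3216 to 796 CPM with CP. Ncl, which encodes nucleolin, went from 1099 to 398 CPM and from 2156 to 623 CPM. The 12 assembly chaperones had medians of -0.88 and -0.66, the latter near that of all features. Among them, Nap1l1 was at 248 and 235 CPM in Acta1-high barcodes against 790 and 786 CPM in Pax7-positive ones. Without CP, 34 of 76 core members had a higher CPM in Acta1-high than in Pax7-positive barcodes, and with CP 3 of 76 did. The share of all features that were higher was not counted, and these counts follow the module share.

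Translation factors had medians of -0.26 over 39 measured genes without CP and -0.21 with CP, so that their median was below that of the core members without CP and above it with CP. Their most abundant members differed among themselves. The translationally controlled Tpt1 was at 7308 CPM in Acta1-high against 5576 CPM in Pax7-positive F/R/C barcodes and at 8641 against 5906 CPM with CP. For the elongation factor gene Eef1a1 the same values were 6101 against 6391 CPM and 3676 against 5292 CPM. Eef1a2, the muscle paralogue of that gene, was at or under 0.775 CPM in every class. Genes for the proteins of the mitochondrial ribosome had medians of -0.25 (77 genes) and -0.04 (78 genes). Myc, a known driver of ribosomal gene expression, was at 32.8 CPM in Pax7-positive and 9.48 CPM in Acta1-high F/R/C barcodes, and at 25.5 and 6.30 CPM with CP.

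Within the module, the counts were spread unevenly over genes whose proteins are made in equal number. UMIs of a 3′ library count molecules and not fragments, so no length correction was made. The ratio between the clones was ordered by coding length all the same, as given below. Levels of short and long members may therefore not be on the same scale, and reads that match several genes may be lost for some members. Without CP, the highest share of the module was that of Rps2, at 3.16%, followed by the stalk gene Rplp0 (2.97%), Rpl13 (2.89%), Rpl41 (2.52%) and Rps12 (2.50%). Rps10 (0.144%), Rpl13a (0.189%), Rpl31 (0.411%), Rps27 (0.444%) and Rpl35 (0.445%) were the lowest core members. The highest core share was 21.9 times the lowest without CP and 22.9 times with CP. Most members were much closer than that. A share between 0.5 and 2 times the core median was held by 62 of 76 without CP and 69 of 76 with CP. The 40S genes took 43.7% of the module without CP and 42.6% with CP, and the 60S genes 49.4 and 50.9%. Of the 10 highest members of each library, 7 were shared.

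Between the clones the order of shares was alike and single genes differed. Across the 76 core members, log2 shares in the libraries had a Pearson r of 0.86 and a Spearman rho of 0.83, as a description of genes that share library and depth. In CPM, 55 of 76 core members were higher with CP. The share of all features that were higher was not counted, and as the members make up the module, the 55 in part restate its higher share. Of 84 members with at least 100 counts, 23 were 1.5-fold higher or more, where 17.5% of 14489 features were. A single member, Rps2, was lower by that fold, where 22.6% of features were. As a share of the module, 14 of these 84 members were 1.5-fold higher (13.2% of features per module count) and 3 were lower (35.7% of features per module count). The part of the members that was higher was thus near that of all features. The 14 include Rps23rg1, with 7 and 129 counts and an interval that includes 0 (-0.40 to 2.02). They also include Rps27rt, whose counts cannot be told from those of Rps27 with certainty and which was 1.06-fold per Rps27 count (0.967 to 1.17). Both are also among the 23. The median log2 CPM ratio was 0.28 for core members and -0.12 for all features.

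Among members with at least 100 counts, the largest shift downward was that of Rps2, which encodes a protein at the mRNA entry channel of the small subunit. It had 7160 CPM without CP and 3967 CPM with CP, so its share of the module went from 3.16 to 1.49%, a log2 ratio of -1.09 (-1.10 to -1.08). Rps18 had 5323 and 3909 CPM, with a log2 share ratio of -0.68. Rplp0, the base of the stalk that recruits elongation factors, had 6721 and 5310 CPM (-0.58), and Rpl3, a protein near the peptidyl transferase centre, 2852 and 2263 CPM (-0.57). Rps3, Rpl14 and Rps4x followed at -0.55, -0.53 and -0.52. Without CP, these 7 core members each took between 1.26 and 3.16% of the module. The paralogue Rpl7l1 was lower too, with 135 and 104 CPM (-0.61), and took 0.0594% of the module without CP.

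The members with the largest shift upward encode small proteins, with coding sequences of 375 bases or fewer. Rps29, a zinc-binding protein of the small subunit, had 2027 CPM without CP and 4721 CPM with CP, and its share of the module went from 0.895 to 1.77%, a log2 ratio of 0.98 (0.97 to 0.99). Rpl31 had 930 and 2068 CPM (0.91), Rpl37 1711 and 3753 CPM (0.90) and Rpl35 1009 and 2083 CPM (0.81). Rps21 and Rps27 had log2 share ratios of 0.80 and 0.73. Among the members that are not core, Rpl36al had 91.7 and 214 CPM (0.99) and Rps27rt 16.6 and 34.5 CPM (0.82).

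**Figure D2:**
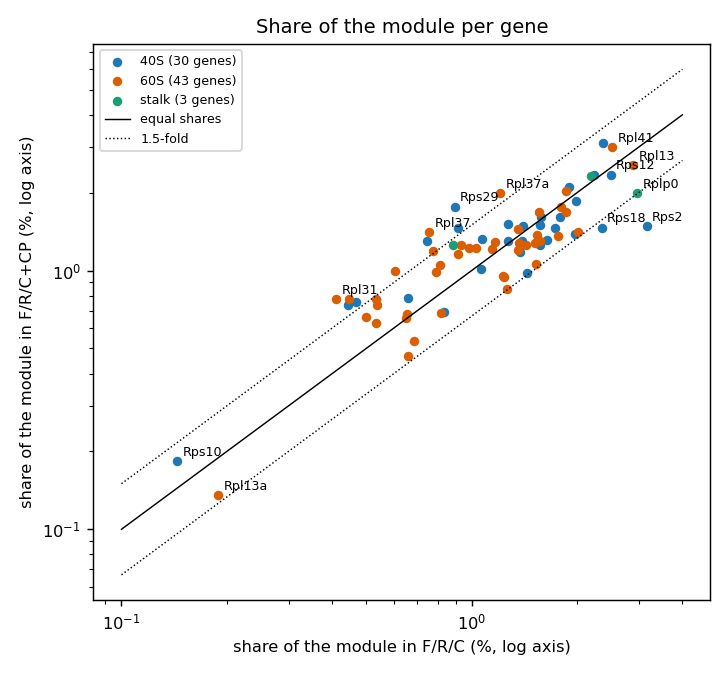
Share of the module (%) of each core member in F/R/C (horizontal, log axis) and F/R/C+CP (vertical, log axis), coloured by subunit. The solid line marks equal shares and the dotted lines 1.5-fold; Rps2 and Rps18 lie below the lower line and Rps29, Rpl31 and Rpl37 above the upper one.

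The difference between the clones was ordered by the length of the coding sequence. Across the 76 core members the log2 CPM ratio and the log2 coding length had a Pearson r of -0.70 (Spearman rho -0.78). The median log2 ratio was 0.91 for 6 members with under 250 coding bases, 0.71 for 10 with 250 to 350, 0.36 for 20 with 350 to 450, 0.14 for 19 with 450 to 600, -0.06 for 14 with 600 to 800 and -0.26 for 7 longer ones. Every member of the 3 shortest bins was higher with CP, against 2 of the 7 members of 800 bases or more. The 6 shortest members took 1.499% of counts without CP against 2.56% with CP, the next 10 took 2.19 and 3.57%, and the 7 longest 2.63 and 2.17%. Rpl41, with 75 coding bases the shortest, was below this order at 0.49.

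The same order held within each class of barcodes, with a Spearman rho of -0.79 in Pax7-positive, -0.78 in cycling, -0.77 in Myog-high and -0.74 in Acta1-high barcodes, and with -0.75 between 10000 and 20000 UMIs. It was also present in genes that are not members. Among 2983 other genes at 50 CPM or more, the median log2 ratio was 0.51 for 78 genes under 250 coding bases and -0.25 for 1236 of 1500 bases or more, with a Spearman rho of -0.23. Between the deepest and the shallowest 20% of Pax7-positive barcodes within a library, rho of the log2 share ratio with coding length was -0.28 without CP and -0.04 with CP. The relation with length was noticed in these data, and its cause was not tested.

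**Figure D3:**
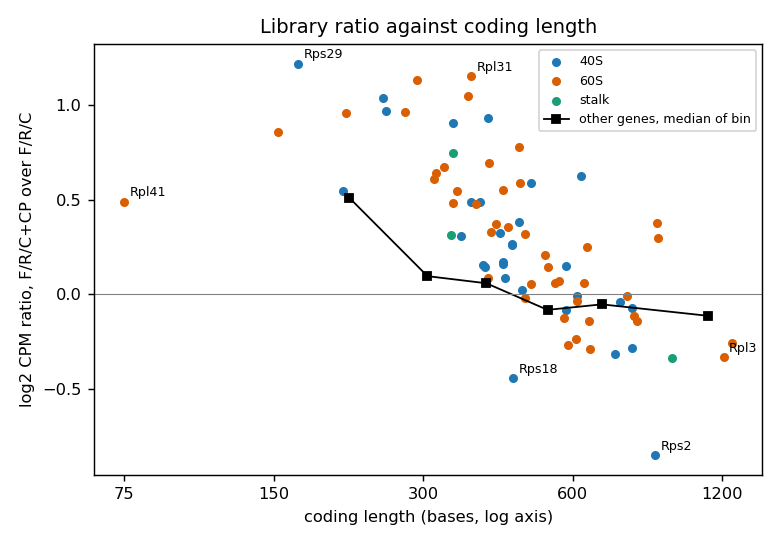
Log2 ratio of CPM with CP over CPM without CP (vertical) against coding length in bases (horizontal, log axis) for the 76 core members, coloured by subunit, with the median of other genes at 50 CPM or more in bins of length (squares). Short members lie highest, with a median of 0.91 under 250 bases, and the other genes go the same way over a smaller range, from 0.51 downward.

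In Acta1-high barcodes a further set of members stood apart. Setting Acta1-high beside Pax7-positive barcodes, the log2 ratios of module shares without CP and with CP had a Pearson r of 0.75 (Spearman rho 0.70) across the 76 core members, 56 of which had the same sign. Genes are not independent replicates, so these values are a description. Coding length and these ratios had a rho of -0.37 without CP and -0.09 with CP. The ratios were small, between -0.40 and 0.39 without CP and between -0.70 and 0.57 with CP, and 60 and 55 of 76 core members lay within 0.2 of no difference. Of 82 members with at least 100 counts, 0 were 1.5-fold higher as a share of the module in F/R/C (12.7% of 8920 features per module count) and 2 were lower, Rps27l and Rps27rt (53.4%). With CP, 1 member, Rps19bp1, was higher (23.6% of 13122 features) and 2, Rpl12 and Rpl13a, were lower (39.8%).

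As a share of the module, 23 of 43 genes of the 60S subunit and 15 of 30 of the 40S subunit were higher in Acta1-high than in Pax7-positive barcodes without CP, and 25 and 8 with CP. Their median log2 ratios were 0.006 and 0.0008 without CP, so the subunits did not differ there, and 0.05 and -0.05 with CP. Shares are parts of a fixed total, so some are higher where others are lower, and the share of all features that were higher was not counted. Rpl9, of the 60S subunit, had 1.18% of the module in Pax7-positive and 1.51% in Acta1-high F/R/C barcodes, a log2 ratio of 0.35 (0.32 to 0.38), and 0.881 and 1.30% with CP, a log2 ratio of 0.57 (0.56 to 0.58). Rps20 went from 2.14 to 2.70% and from 2.21 to 2.88% (0.33 and 0.38). For Rpl37a the shares were 1.12 and 1.47% without CP and 1.90 and 2.30% with CP (0.39 and 0.28). Rps19bp1, at 0.0254% of the module in Pax7-positive F/R/C barcodes, had 0.35 and 0.74. Rpl27 followed with 0.20 and 0.37, Rpl24 with 0.18 and 0.23, Rpl26 with 0.19 and 0.19, and Rpl7 with 0.22 and 0.17. The ratios had the same sign in barcodes of 10000 to 20000 UMIs for Rpl9 (0.43 and 0.30), Rps20 (0.37 and 0.26) and Rpl37a (0.34 and 0.25).

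The lower members included Rpl12, a protein at the base of the stalk. Its share was 1.49% in Pax7-positive and 1.13% in Acta1-high F/R/C barcodes (log2 ratio -0.40, -0.43 to -0.36) and 1.34 and 0.886% with CP (-0.60, -0.61 to -0.59). Rpl7a went from 0.729 to 0.551% and from 0.570 to 0.419% (-0.40 and -0.45). Rpl7l1 had -0.48 and -0.18. Rpl13a, known for a role outside the ribosome in repressing inflammatory mRNAs, had -0.35 and -0.70, and Rpl3 -0.34 and -0.40. Rps21 and Rpl22 had smaller ratios without CP, with -0.18 and -0.41, and -0.20 and -0.30. At 10000 to 20000 UMIs the ratios of Rpl12 were -0.40 and -0.49 and those of Rpl13a -0.29 and -0.41, so that no core member was past 1.5-fold there.

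The clones differed for Rps12, which was at 2.45 and 2.50% of the module in Pax7-positive and Acta1-high F/R/C barcodes (0.03, 0.00 to 0.05), but at 2.46 and 1.76% with CP (-0.48, -0.49 to -0.48). In the 10000 to 20000 window its ratios were -0.10 and -0.25. Rps29 had 0.01 without CP and -0.26 with CP, but 0.01 and -0.05 in that window. These 2 members were picked out after their values had been seen. With CP, 40S genes took 42.9% of the module in Pax7-positive and 41.5% in Acta1-high barcodes and 60S genes 50.6 and 52.5%, whereas without CP the 40S share was 43.8 and 43.9%.

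**Figure D4:**
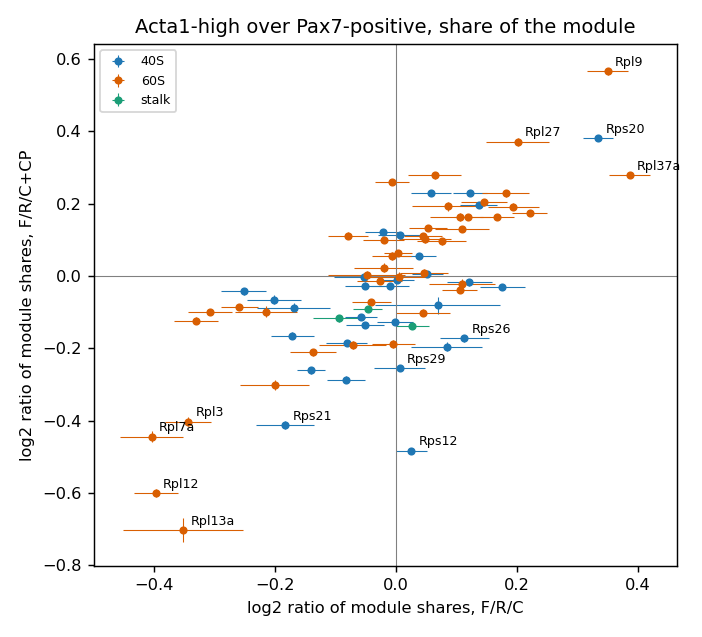
Log2 ratio of module shares, Acta1-high over Pax7-positive barcodes, in F/R/C (horizontal) and F/R/C+CP (vertical) for the 76 core members, coloured by subunit, with exact 95% counting intervals as lines. Rpl9, Rps20 and Rpl37a are high in both clones and Rpl12, Rpl7a, Rpl13a and Rpl3 low in both, while Rps12 is near 0 without CP and at -0.48 with CP.

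In cycling and Myog-high barcodes the composition of the module differed less. Cycling and Pax7-positive barcodes had core log2 share ratios between -0.16 and 0.07 without CP and between -0.05 and 0.08 with CP. Of the named members, Rpl24 had -0.07 and -0.05 and Rps26 -0.11 and -0.05. The higher ones were members that are not core: Rpl7l1, which acts in making the large subunit, had 0.32 and 0.22, Rps19bp1 0.38 and 0.17 and Rps27l 0.11 and 0.08. In Myog-high barcodes the core range was -0.28 to 0.31 without CP and -0.22 to 0.16 with CP, with a Pearson r of 0.71 between the clones. Rplp1, an acidic stalk protein, had 0.19 and 0.16, Rpl28 -0.28 and -0.22 and Rpl32 -0.16 and -0.14. Rpl28 and Rpl32 were also lower in Acta1-high barcodes, at -0.31 and -0.10, and -0.26 and -0.09. These ratios were further from no difference than in Myog-high barcodes without CP and nearer to it with CP. No order between the classes was tested. Rps19bp1 and Rpl7l1 were higher in Myog-high barcodes of both clones, at 0.53 and 0.36 and at 0.31 and 0.21, and Rps27l was lower, at -0.35 and -0.16.

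Over barcodes of 1 class, the spread of a member's counts for a given module count was described by an index, the Pearson chi-square per degree of freedom of a member's counts around its mean share, which is near 1 for pure counting noise and, where a share varies, grows with depth and with the member's own count. Members of high share thus have a higher index at the same relative variation, and the order of members is not one of relative variation. In Pax7-positive barcodes the core median was 1.22 without CP and 1.56 with CP. Rps12 (2.84 and 3.79), Rpl41 (1.96 and 4.00), Rps2 (2.83 and 2.36), Rps26 (1.68 and 2.72), Rps15 (1.71 and 2.72) and Rpl37a (1.61 and 2.58) were among the 10 highest in both clones. Acta1-high barcodes had medians of 1.44 and 2.75, with Rpl41 at 18.6 and Rps12 at 11.9 with CP. The lowest core value there, 1.03, was that of Rps10, which also has few counts. The members named for their spread were chosen after their values had been seen.

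The paralogues were present at very different levels. Rpl3l, the striated muscle paralogue, had 11 counts in 11 of 3962 F/R/C barcodes and 132 counts in 116 of 10834 F/R/C+CP barcodes, or 0.395 and 0.486 CPM. Of these, 4 and 69 counts were in Acta1-high barcodes, where it reached 1.35 and 1.48 CPM, against 2 and 26 counts, or 0.205 and 0.260 CPM, in Pax7-positive ones. It had no count in cycling and Myog-high F/R/C barcodes, which allows up to 0.547 and 0.978 CPM. Per Rpl3 count, Rpl3l was 9.77-fold higher in Acta1-high than in Pax7-positive F/R/C+CP barcodes (6.14 to 15.99), and 8.49-fold without CP, where an interval of 1.22 to 93.8 came from 4 and 2 counts. In CPM, it was 5.72-fold with CP (3.59 to 9.36) and 6.62-fold without CP (0.948 to 73.1), where the interval includes no difference. Rpl3 itself was lower in Acta1-high F/R/C+CP barcodes, at 1463 against 2500 CPM. Even so there were only 0.101 Rpl3l counts for 100 Rpl3 counts in Acta1-high F/R/C+CP barcodes. The Rpl3l transcript that was compared with that of Rpl3 shares at most 17 bases in a row with it. At 1033 bases it is shorter than the coding sequence of Rpl3l, 1221 bases, so the comparison did not cover all of Rpl3l.

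Rpl22l1 and Rps27l were more abundant than the lowest core members, Rps10 and Rpl13a, in both clones. Rpl22l1 had 879 CPM without CP and 1096 CPM with CP, which was 72.8 and 65.3 counts per 100 of Rpl22, a ratio of 0.897-fold between the clones (0.885 to 0.908). Over the classes it lay between 64.7 and 75.9 without CP and between 63.1 and 73.6 with CP. Rps27l, which is known as a target of p53, had 689 and 897 CPM. It was at 75.03 counts per 100 of Rps27 in Pax7-positive, 80.4 in cycling, 59.2 in Myog-high and 42.2 in Acta1-high F/R/C barcodes. With CP, the same values were 45.5, 48.2, 41.5 and 49.7, where Acta1-high barcodes had the highest value per Rps27 count. In CPM, Rps27l was lowest in Acta1-high barcodes with CP, at 713 against 966 in Pax7-positive ones, while Rps27 was at 1433 against 2122 CPM. As a share of the module the log2 ratio of Rps27l, Acta1-high over Pax7-positive, was -0.74 (-0.83 to -0.66) without CP and -0.07 (-0.09 to -0.05) with CP.

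**Figure D5:**
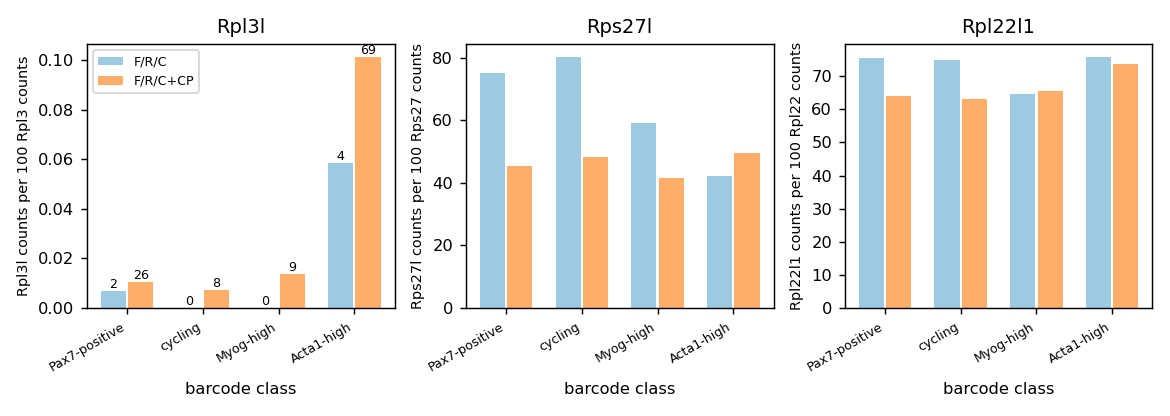
Counts of Rpl3l, Rps27l and Rpl22l1 per 100 counts of Rpl3, Rps27 and Rpl22 in each barcode class (bars start at 0), with the number of Rpl3l counts written above its bars. Rpl3l is highest in Acta1-high barcodes of both clones, and Rps27l goes from 75.03 in Pax7-positive to 42.2 in Acta1-high barcodes without CP.

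The other paralogues were low. Rpl36al had 8.13 and 12.2 counts per 100 of Rpl36a without and with CP, and Rpl7l1 3.37 and 2.88 per 100 of Rpl7. Rpl7l1 was lower in Acta1-high than in Pax7-positive barcodes of both clones, at 2.09 against 3.38 and at 2.30 against 2.95 per 100 of Rpl7. Rpl39l, known from male germ cells, had 13 counts in 12 F/R/C barcodes, 10 of them among the remaining barcodes, and no count with CP, where 0 counts allow up to 0.0111 CPM. Rpl10l, the germ cell paralogue of Rpl10, had no count in either library, which allows up to 0.108 and 0.0111 CPM. Rps27rt, with 462 and 9355 counts, shares 341 bases in a row with the 345-base transcript of Rps27, so its counts cannot be told from those of Rps27 with certainty. Rps23rg1 had 7 and 129 counts.

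Of the ribosomal protein genes outside the pattern, Rpsa had 5380 CPM without CP and 4861 CPM with CP, and Fau, which encodes a fusion of a ubiquitin-like protein with Rps30, 4215 and 4137 CPM. The 8 pseudogene rows left out by the rule had 81.9 CPM without CP and 77.9 CPM with CP in all.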

How the data were processed

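Droplet single-cell RNA sequencing (10x 3' v3.1) was measured in 1 library without CP (F/R/C) and 1 with CP (F/R/C+CP), with groups from the labels. The deposited values are whole-number UMI counts. Per the sources, the authors ran Cell Ranger 7.0.0 against GRCm39. The submitters' processing notes also name Seurat 4.2.1. A correction for free RNA (SoupX) is described for F/R/C+CP and may or may not be in the deposited counts.

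Barcodes were kept with the study's limits: at least 250 genes, no more than 4000 genes without CP or 7000 with CP, at most 15% mitochondrial and 40% ribosomal counts. Exclusive classes were set per library in this order: the top 10% by Acta1 CPM, then 10% by Myog CPM, then the top 20% of the rest by 20 proliferation genes, then barcodes with at least 1 Pax7 UMI. They are ranges of a gene's level and not cell types. Limits for Acta1-high, Myog-high and cycling were 5651, 1978 and 4942 CPM without CP and 9691, 1613 and 4370 CPM with CP, with 75, 194 and 248, and 257, 503 and 522 barcodes within 10% of them. A Pax7 UMI is found more readily in deeper barcodes. No doublets were removed: Scrublet (scanpy 1.11.5) called 4 and 0 kept barcodes, so removal of the 176 and 1040 highest scores was an alternative.

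Counts were summed and expressed as CPM or as a share of the module. Ratios carry exact conditional binomial 95% intervals and shares exact Clopper-Pearson ones. A count of 0 was set to 3 counts. No test was run, since a group is a single library. Calls are ratios past 1.5-fold among features with at least 100 counts in both sums together. Ratio and interval code was tested on simulated data. Coding lengths are of APPRIS principal transcripts in GENCODE M21 (GRCm38) and were found for 76 of 76 core members. The principal transcript was chosen after seeing the data, in place of the longest coding sequence. Named members were, for core members, the 6 highest and 6 lowest shares in F/R/C. For the other comparisons they were the 8 (Acta1-high and libraries) or 3 (cycling and Myog-high) largest ratios in each direction, ranked by the smaller ratio of both clones for classes, with every paralogue. Some genes that this rule names are not reported here. Context lists were named by up to 4 genes of highest mean CPM. The members and lists were chosen with earlier results of these data known. Alternatives are given in the closing section. Python 3.11.15 with numpy 2.4.6 and scipy 1.17.1 was used.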

Additional observations from a re-analysis of the deposited data

Results flagged for a closer look

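In Acta1-high against Pax7-positive barcodes, 2 named members had log2 ratios of module shares of opposite sign in the clones without and with CP, each at least 0.1 from no difference and with a counting interval that leaves out 0. Rps26, a protein at the mRNA exit channel, was at 0.11 without CP and -0.17 with CP. Rpl36al, the paralogue of Rpl36a, was at 0.25 without CP and -0.11 with CP. Between 10000 and 20000 UMIs the ratios of Rpl36al were 0.10 (-0.29 to 0.48) and -0.06 (-0.14 to 0.02), both with intervals that include 0, and those of Rps26 were 0.09 (0.00 to 0.17) and -0.18 (-0.19 to -0.16), the first of them under 0.1. The difference between the clones was not tested, since each clone is 1 library.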

How the results depend on the processing

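Of the alternative values, 68 stayed within the counting interval or within 1.5 times the count, 58 moved and 6 changed sign; for those, the cause was not tested. All are log2 ratios unless called counts. For the module share with CP over that without CP (0.24), the value was 0.24 without the limit on ribosomal counts, 0.27 in all deposited barcodes, 0.24 from 4000 UMIs, 0.45 at 10000 to 20000 UMIs, 0.26 as a mean over barcodes, 0.24 without mitochondrial and contractile counts and 0.23 with a strict member list, which leaves out paralogues and Rps19bp1 and adds the ribosomal protein genes outside the pattern. Rpl22l1 per Rpl22 (-0.16) was -0.18 in all deposited barcodes and -0.29 at 10000 to 20000 UMIs.

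For cycling over Pax7-positive without CP (-0.087), it was -0.12 in all deposited barcodes, -0.093 from 4000 UMIs, -0.077 as a mean over barcodes, -0.095 without mitochondrial and contractile counts, -0.093 with 5% and -0.092 with 20% classes and -0.055 with classes not exclusive. With CP (-0.047) it was -0.050 without the ribosomal limit, -0.024 in all deposited barcodes, -0.055 as a mean, -0.065 without mitochondrial and contractile counts, -0.046 without the highest Scrublet scores, -0.040 with 5% classes, -0.032 with Pax7 thinned to 2000 UMIs and -0.021 with classes not exclusive.

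For Myog-high over Pax7-positive without CP (0.00043) it was -0.0048 in all deposited barcodes, -0.011 from 4000 UMIs, 0.040 as a mean, 0.054 without mitochondrial and contractile counts, 0.031 with 5% and 0.0069 with 20% classes, and 0.040 with classes not exclusive. With CP (-0.032) the sign changed at 10000 to 20000 UMIs (0.024) and without mitochondrial and contractile counts (0.0063). It was -0.0010 in all deposited barcodes, -0.026 as a mean, -0.034 without the highest Scrublet scores and with the strict list, -0.018 with 20% classes, -0.017 with thinned Pax7 and -0.069 with classes not exclusive.

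For Acta1-high over Pax7-positive without CP (-0.016) the sign changed without the ribosomal limit (0.011), without mitochondrial and contractile counts (0.18), with 20% classes (9.83e-05) and with classes not exclusive (0.011). It was -0.18 in all deposited barcodes, -0.023 from 4000 UMIs and as a mean, and -0.093 with 5% classes. With CP (-0.37) it was -0.36 without the ribosomal limit, -0.34 in all deposited barcodes, -0.15 at 10000 to 20000 UMIs and without mitochondrial and contractile counts, -0.39 as a mean and without the highest Scrublet scores, -0.37 with the strict list, -0.40 with 5%, -0.28 with 20%, -0.35 with thinned Pax7 and -0.34 with classes not exclusive. The count of members past 1.5-fold there went from 3 to 0 at 10000 to 20000 UMIs. Without CP it went from 2 to 1 at 10000 to 20000 UMIs, with the strict list, with 20% classes and with classes not exclusive.

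Rpl3l per Rpl3 without CP (3.09) rests on 4 and 2 counts. With thinned Pax7 it was at least 1.48, from 4 against 0 counts, and at 10000 to 20000 UMIs 1 against 0 counts gave no ratio. Only 642 barcodes without CP and 4445 with CP lay at 10000 to 20000 UMIs, and 378 barcodes without CP were left out of thinning. With 1 library a group, no left-out replicate or spread between clones could be given, and genes as low as Rpl3l and Rpl39l are limited by depth.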
